A study of Homo sapiens with 9 samples.

Results

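The genes described here are 10 transcription factors that direct basal and luminal fates of the mammary epithelium: TP63, GATA3, ELF5, ESR1, FOXA1, SOX9, TFAP2A, TFAP2C, KLF4 and KLF5. They were taken by symbol from a table of read counts, and all 10 were found among its 60199 symbols. RNA selected for poly-A tails had been sequenced from 9 cultures of human MCF10A cells, an immortalised line of non-malignant breast epithelium that lacks CDKN2A. The control cells (CT, 3 libraries) were MCF10A grown without added BMP2 or IL6 and are labelled as not transformed. MC26 (3 libraries) came from unsorted MCF10A cells and M1B26 (3 libraries) from cells sorted for the BMP receptor BMPR1B and then expanded from soft-agar clones, both under long exposure to the growth factor BMP2 and the cytokine IL6. Both lines are labelled as transformed and were kept in medium with BMP2 and IL6. The labels give BMP2 at 5 and IL6 at 10 ng per microliter, whereas the study's methods give both factors at 10 ng per mL. The 3 libraries of a line are described as independent cultures of it, and which clone each M1B26 culture held is not given. Total counts ran from 21425118 to 80076597 per library. Values are given as CPM, each count as a share of its library on a scale common to all libraries, after scaling of the libraries, and 1 count stood for 0.0122 to 0.0437 CPM. The labels name no preparation batch, and one that followed the line cannot be told apart from the line.

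The mammary epithelium has an inner luminal layer, which makes milk and senses hormones, and an outer basal layer, which contracts and rests on the basement membrane. TP63 maintains basal cells and drives their keratins and adhesion proteins. GATA3, FOXA1 and the oestrogen receptor ESR1 form a linked circuit in hormone-sensing luminal cells, and ELF5 directs the alveolar luminal cells that make milk. TFAP2A and TFAP2C are AP-2 factors, KLF4 and KLF5 are zinc-finger factors of the Krüppel-like family, and SOX9 is tied to luminal progenitor and stem-like states.

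The libraries held keratins of both layers of the epithelium. KRT5, a basal keratin, lay between 4633 and 7299 CPM over the 9 libraries, and KRT18, a luminal one, between 420 and 558 CPM. KRT14, another basal keratin, held only 42.2 to 61.7 CPM in CT, against 766 to 1521 in MC26 and 461 to 625 in M1B26. Of 8 fibroblast markers, COL1A2, COL3A1 and THY1 were at or under 3 counts in every library. Above 3 counts in all 3 libraries of a line were 3 of the 8 in CT, 3 in MC26 and 4 in M1B26. The summed level of the list was 37.4 to 37.8 CPM in CT, 17.1 to 56.8 in MC26 and 28.5 to 39.9 in M1B26. Of 8 leukocyte and endothelial markers, PTPRC, CD3E, CDH5 and VWF were at or under 3 counts in every library. Above 3 counts in all 3 libraries of a line were 2 of the 8 in CT, 1 in MC26 and 3 in M1B26. The summed level of these 8 was 11.9 to 16.4 CPM in CT, 9.85 to 18.4 in MC26 and 34.5 to 49.7 in M1B26. In M1B26 CD14 alone stood at 38.5 ± 8.09 CPM (SD, n = 3). In bulk RNA, fewer cells of a type and less RNA per cell cannot be told apart.

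The first question was which lineage factors differed between each line and the parental cells, and between both lines. TP63 was higher and GATA3 and TFAP2C were lower in both MC26 and M1B26 than in CT. KLF4, KLF5 and TFAP2A rose and SOX9 fell in MC26 but were not past the threshold in M1B26. ESR1 was near the limit of detection in all 3 lines and highest in M1B26, FOXA1 was not past the threshold in any comparison, and ELF5 was all but absent. Of the 10 genes 9 passed the filter on low counts, ESR1 only through M1B26, where it is high. In MC26 against CT 8 of the 9 changed, or 7 of 8 without ESR1, where 38.7% of all 15717 genes tested did. Of the 9 tested 5 were higher, or 4 of 8 without ESR1, beside 18.8% of all genes. Lower were 3, with or without ESR1, beside 19.9% of all genes. In M1B26 against CT 4 changed, or 3 of 8 without ESR1, against 48.9% of all genes, a share near or below the background. Of the 9 tested 2 were higher, or 1 of 8 without ESR1 (25.2% of all genes), and 2 lower, with or without it (23.7%). Between M1B26 and MC26 6 changed, or 5 of 8 without ESR1, against 39.5% of all genes. In M1B26 2 of the 9 were higher, or 1 of 8 without ESR1 (21.2% of all genes), and 4 lower, with or without it (18.4%). The libraries of both lines did not overlap for 8 of the 9 genes in MC26 against CT, where that held for 50.3% of all genes, for 6 in M1B26 against CT (59.0%) and for 5 between M1B26 and MC26 (53.5%), ESR1 among them each time. With total counts in place of scaling factors, 35.8% of the genes called in MC26 against CT were higher, not 48.5%, and 39.6% of those in M1B26 against CT, not 51.5%. A gene was called changed at a Benjamini-Hochberg adjusted p under 0.05 by the quasi-likelihood test of edgeR. Both comparisons against CT share the same CT libraries. The number between the lines fell to 3 without MC26 replicate 1, without MC26 replicate 2 or without M1B26 replicate 3.

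**Figure D1:**
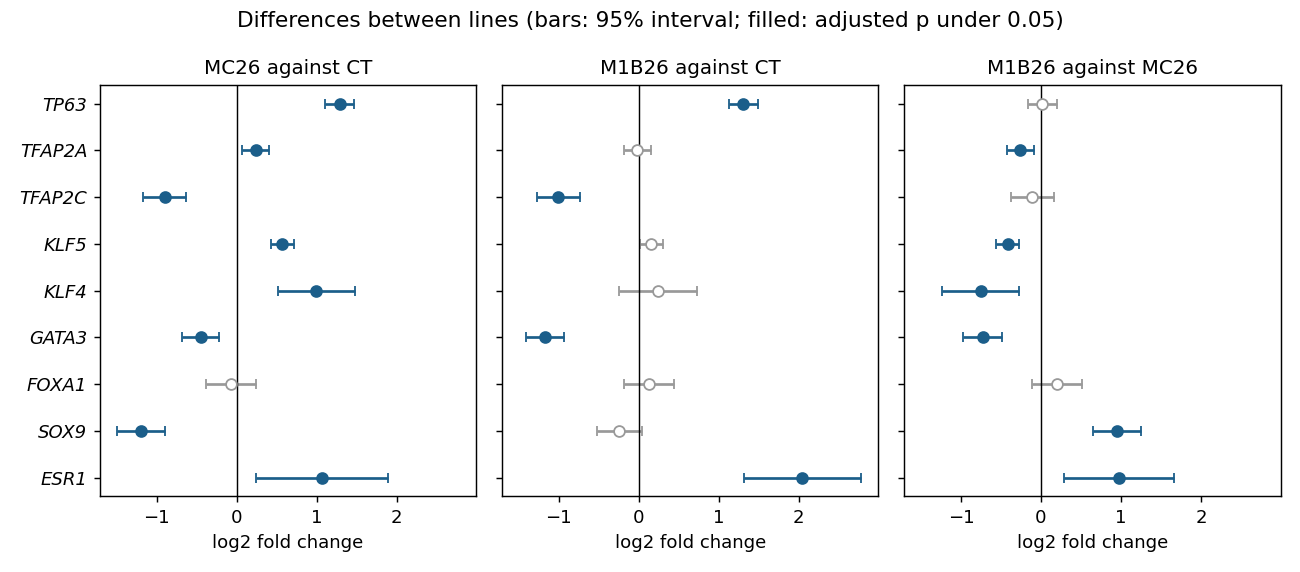
Log2 fold change of 9 lineage factors in the 3 comparisons between lines, with bars for the 95% interval and filled points for an adjusted p under 0.05 by edgeR (ELF5 was not tested). TP63 is to the right and GATA3 and TFAP2C are to the left of 0 in both comparisons against CT, and the interval of FOXA1 spans 0 in all 3 panels.

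TP63 (chromosome 3, 189631389 to 189897276 on GRCh38) encodes p63, on which basal cells of stratified and glandular epithelia depend. It stood at 36.0, 30.5 and 29.3 CPM in CT replicates 1 to 3, at 76.9, 78.7 and 78.6 CPM in MC26 and at 81.4, 73.8 and 81.7 CPM in M1B26. Every library of both lines lay above every CT library. In MC26 the level was 2.44-fold that of CT, a log2 fold change of 1.29 (edgeR adjusted p 1.54e-06, SE 0.08). In M1B26 it was 2.47-fold, or 1.31 on the log2 scale (edgeR adjusted p 9.36e-07, SE 0.08). Such a rise in both lines was called for 11.1% of all genes tested. M1B26 and MC26 differed by 0.02 (95% interval -0.16 to 0.20, edgeR adjusted p 0.890), and their values overlapped. TP63 has an upstream promoter for the long TAp63 forms and an internal one for the ΔNp63 forms, which counts per gene do not separate.

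**Figure D2:**
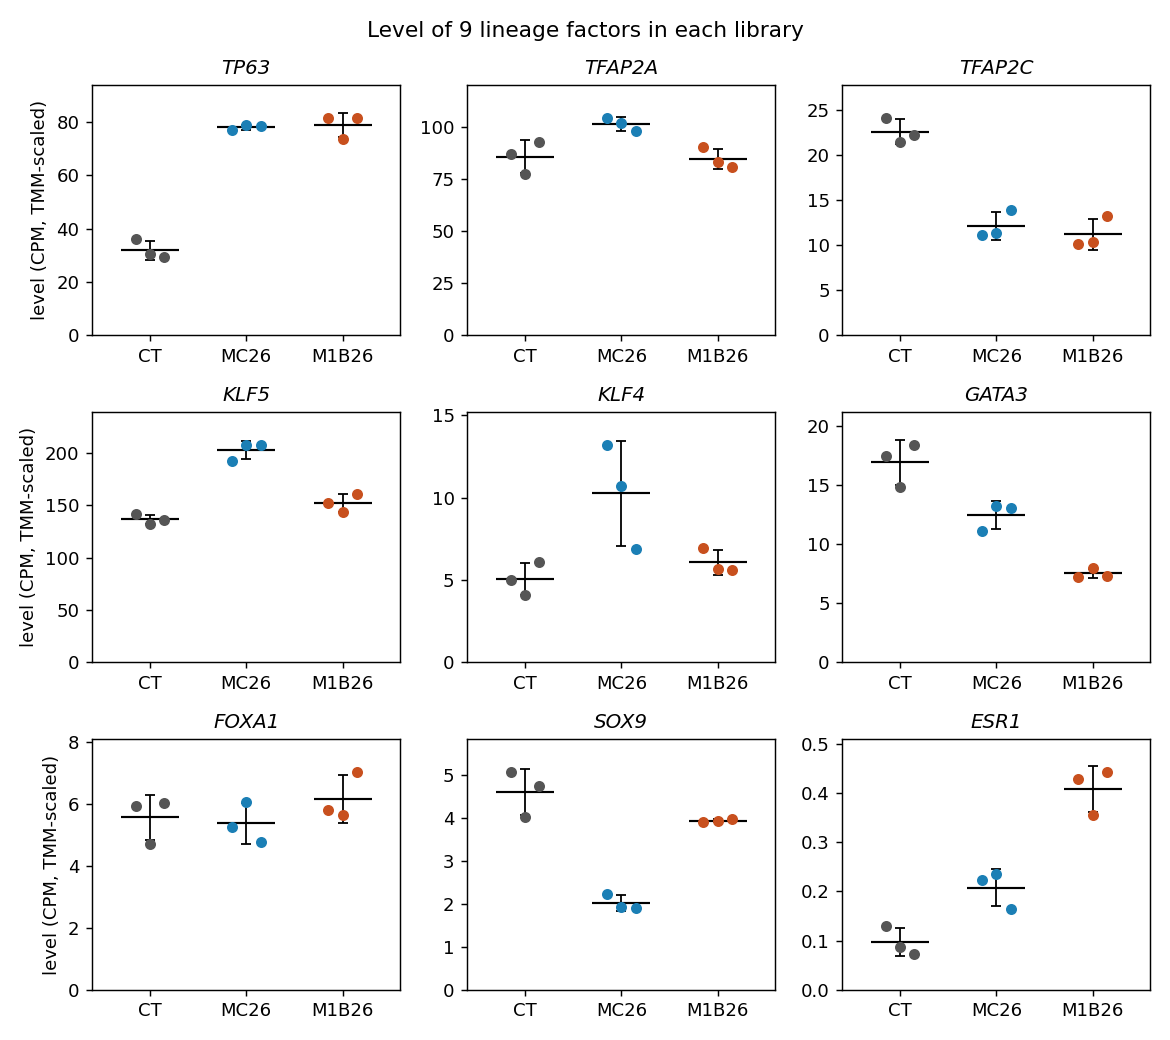
Level in CPM of 9 lineage factors in each of the 9 libraries, with points for replicates 1 to 3 from left to right, long bars for the mean of a line and error bars for the SD (n = 3), each panel with its own axis from 0. The 6 transformed libraries lie above CT for TP63 and below CT for TFAP2C and GATA3, while MC26 lies apart from both other lines for SOX9 and KLF5.

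GATA3 (chromosome 10, 8045378 to 8075198) encodes a zinc-finger factor needed to form and keep luminal cells. It held 17.5, 14.8 and 18.4 CPM in CT, 11.1, 13.2 and 13.1 CPM in MC26 and 7.26, 7.98 and 7.31 CPM in M1B26. The 3 lines did not overlap, with CT highest and M1B26 lowest. Its log2 fold change was -0.45 in MC26 against CT (edgeR adjusted p 0.00663, SE 0.11) and -1.18 in M1B26 against CT (edgeR adjusted p 9.65e-06, SE 0.11). The further step from MC26 to M1B26 was -0.73 (edgeR adjusted p 4.83e-04, SE 0.11). A fall in both lines against CT was called for 11.6% of all genes tested. The antisense gene GATA3-AS1, which starts beside GATA3, had at most 6 counts in any library.

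The RefSeq promoter table held windows for 8 of the 10 genes, and SOX9 and TFAP2C were not matched. The first GATA3 window and the KLF4 window are shown because each holds a match to the AP-2 motif, and TFAP2C and TFAP2A were among the genes that changed. The 250 bases upstream of each start on GRCh38.p14 were chr10:8045083-8045332 on the plus strand for GATA3 and chr9:107489770-107490019 on the minus strand for KLF4, with motif matches in capitals.
GATA3: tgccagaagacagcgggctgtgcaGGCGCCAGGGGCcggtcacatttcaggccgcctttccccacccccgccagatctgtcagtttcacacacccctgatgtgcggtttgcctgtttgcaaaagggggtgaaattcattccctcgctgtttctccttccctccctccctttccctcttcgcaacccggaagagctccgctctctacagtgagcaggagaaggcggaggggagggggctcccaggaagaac
KLF4: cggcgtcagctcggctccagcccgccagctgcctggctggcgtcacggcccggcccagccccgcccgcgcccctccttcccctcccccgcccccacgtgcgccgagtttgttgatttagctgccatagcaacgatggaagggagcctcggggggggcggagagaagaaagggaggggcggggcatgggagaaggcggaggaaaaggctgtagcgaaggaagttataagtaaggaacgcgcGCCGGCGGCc
In GATA3 the run in capitals holds the SMAD1/5 motif GGCGCC and the AP-2 motif GCCNNNGGC, which overlap there, and in KLF4 it holds the AP-2 motif. Over the windows of the table, which also run past each start, and on both strands, the AP-2 motif was in 23.2% of 35116 promoter windows in the table and in 4 of 20 windows of the lineage factors. The SMAD1/5 motif was in 19.2% of all windows and in 4 of the 20, 3 of GATA3 and 1 of FOXA1. The STAT motif TTCNNNGAA was in 7.66% of all windows and in 2 of the 20, both of ESR1. The GATA motif AGATAA was in 10.3% of all windows and in 0 of the 20. These matches are letters in a window, and no binding was measured.

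FOXA1 (chromosome 14, 37589552 to 37596059) encodes a pioneer factor that opens chromatin for ESR1 in luminal cells. It stood at 5.94, 4.72 and 6.04 CPM in CT, 5.27, 6.07 and 4.78 CPM in MC26 and 5.79, 5.63 and 7.04 CPM in M1B26. The 3 lines overlapped. The 95% interval of the log2 fold change ran from -0.38 to 0.25 in MC26 against CT (edgeR adjusted p 0.738) and from -0.18 to 0.44 in M1B26 against CT (edgeR adjusted p 0.469). Between M1B26 and MC26 it ran from -0.11 to 0.51 (edgeR adjusted p 0.290). TTC6, whose exons overlap those of FOXA1 on the other strand, had at most 11 counts in any library.

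ESR1 (chromosome 6, 151656691 to 152129619) was close to the limit of detection in all 3 lines. Its counts were 9, 2 and 6 in CT, 9, 9 and 7 in MC26 and 19, 15 and 24 in M1B26. These equal 0.129, 0.0874 and 0.0732 CPM in CT, 0.224, 0.235 and 0.165 CPM in MC26 and 0.428, 0.355 and 0.443 CPM in M1B26, and no 2 lines overlapped. Over summed counts M1B26 stood at 4.24 times CT, with an exact 95% interval for counting error alone of 2.43 to 7.76. MC26 stood at 2.13 times CT, with an interval of 1.103 to 4.19. ESR1 entered the test because all 3 M1B26 libraries and 1 MC26 library reached the filter's cutoff of 0.229 CPM, and no CT library did. Because it was kept through the line where it is high, its fitted values after the filter (edgeR adjusted p 5.19e-04 in M1B26 against CT, 0.0440 in MC26 against CT and 0.0282 between the lines) are given as a description only. Without the filter M1B26 exceeded CT by 2.05 on the log2 scale (edgeR adjusted p 2.39e-04). In the same fit MC26 was at 1.07 against CT (edgeR adjusted p 0.148) and M1B26 at 0.98 against MC26 (edgeR adjusted p 0.104), both not past the threshold. With the filter, the calls also depended on single libraries. In MC26 against CT the call was lost in 7 of the 9 fits that each left out a library, all except those without CT replicate 1 and without MC26 replicate 3 (adjusted p 0.0570 to 0.202). Between the lines the call was lost in 5 of the 9 fits, without any one MC26 library and without M1B26 replicate 1 or 3 (adjusted p 0.0605 to 0.0949).

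ELF5 (chromosome 11, 34478791 to 34525193) had 1 count in CT, 1 in MC26 and 0 in M1B26, summed over the 3 libraries of a line. It was not detectable beyond 3 counts per library at this depth in any line, was left out by the filter and was given no fold change.

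TFAP2A (chromosome 6, 10393186 to 10419659) and TFAP2C (chromosome 20, 56629306 to 56639283) encode AP-2 factors that bind the same short motif and act in ectoderm, skin and breast. TFAP2C held 24.1, 21.4 and 22.2 CPM in CT, 11.1, 11.3 and 13.9 CPM in MC26 and 10.1, 10.3 and 13.2 CPM in M1B26. All libraries of both lines lay below all CT libraries, at about the same level as each other. Its log2 fold change against CT was -0.90 in MC26 (edgeR adjusted p 2.30e-04, SE 0.12) and -1.01 in M1B26 (edgeR adjusted p 6.67e-05, SE 0.12). M1B26 and MC26 differed by -0.11 (95% interval -0.38 to 0.16, edgeR adjusted p 0.518). TFAP2A held 87.0, 77.7 and 93.2 CPM in CT, 105, 102 and 98.2 CPM in MC26 and 90.3, 83.3 and 81.1 CPM in M1B26. It was higher in MC26 than in CT by 0.24 (edgeR adjusted p 0.0298, SE 0.08) and lower in M1B26 than in MC26 by a log2 fold change of -0.26 (edgeR adjusted p 0.0209, SE 0.08). The rise of TFAP2A in MC26 was lost with total counts in place of scaling factors (0.16, adjusted p 0.0907) and without CT replicate 1 or 2 or MC26 replicate 1 or 2 (adjusted p 0.0583 to 0.0938). Its difference between the lines was lost without MC26 replicate 1 or 2 or M1B26 replicate 2 or 3 (adjusted p 0.0659 to 0.0788). TFAP2A in M1B26 against CT was at -0.02 (95% interval -0.19 to 0.15).

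The counts of both AP-2 genes can be set against each other within a library, where no scaling enters. There were 3.61 to 4.20 counts of TFAP2A per count of TFAP2C in CT, 7.09 to 9.40 in MC26 and 6.15 to 8.90 in M1B26. The ratio in both transformed lines lay above the CT range in every library. TFAP2A-AS1, an antisense gene whose exons overlap TFAP2A, had 14 to 47 counts per library against 1778 or more for TFAP2A. M1B26 lay below CT for this gene by a log2 fold change of -0.97 (edgeR adjusted p 0.0167, SE 0.29), a call lost without M1B26 replicate 3 and with DESeq2. Whether the counting used strand is not given in the sources used here, so reads of both genes may be mixed.

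KLF5 (chromosome 13, 73054976 to 73077541) promotes growth of basal and progenitor cells, and KLF4 (chromosome 9, 107484852 to 107490482) restrains growth in many differentiated epithelia and is also known as a reprogramming factor. KLF5 held 141, 132 and 136 CPM in CT, 192, 207 and 208 CPM in MC26 and 152, 144 and 160 CPM in M1B26. MC26 lay above both other lines in every library. The log2 fold change of KLF5 was 0.57 in MC26 against CT (edgeR adjusted p 7.53e-05, SE 0.07) and -0.41 in M1B26 against MC26 (edgeR adjusted p 7.17e-04, SE 0.07). In M1B26 against CT it was 0.16 (95% interval 0.01 to 0.30, edgeR adjusted p 0.0700), with no overlap of the libraries, and it passed the threshold with DESeq2 (adjusted p 0.0488) and without M1B26 replicate 2 (0.0495). KLF4 held 5.00, 4.11 and 6.09 CPM in CT, 13.2, 10.7 and 6.89 CPM in MC26 and 6.97, 5.68 and 5.60 CPM in M1B26. The MC26 libraries were the most spread, and their lowest lay within the range of M1B26. KLF4 was higher in MC26 than in CT by 0.99 (edgeR adjusted p 0.00456, SE 0.22), and in M1B26 it stood at 0.24 against CT (95% interval -0.25 to 0.72). Between M1B26 and MC26 KLF4 differed by -0.75 (edgeR adjusted p 0.0177, SE 0.22), a call lost without MC26 replicate 1 or 2 or M1B26 replicate 2 or 3 (adjusted p 0.0570 to 0.0748).

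SOX9 (chromosome 17, 72121020 to 72126416) encodes an HMG-box factor active in progenitor cells of many epithelia. Its level was 5.07, 4.02 and 4.75 CPM in CT, 2.24, 1.94 and 1.91 CPM in MC26 and 3.90, 3.93 and 3.97 CPM in M1B26. MC26 lay below both other lines in every library, and every M1B26 library lay just below the lowest CT library. The log2 fold change was -1.20 in MC26 against CT (edgeR adjusted p 6.43e-05, SE 0.14) and 0.96 in M1B26 against MC26 (edgeR adjusted p 3.78e-04, SE 0.14). In M1B26 against CT it was -0.24 (95% interval -0.52 to 0.04, edgeR adjusted p 0.142), and -0.33 (adjusted p 0.0455) with total counts in place of scaling factors. SOX9-AS1 had at most 3 counts in any library.

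Of the 10 genes only SOX9 lies on chromosome 17, which moved as a whole in M1B26. Against CT, its 843 tested genes stood at a median of 0.48 on the log2 scale, and genes elsewhere at -0.01. SOX9 lay 0.72 below the median of its chromosome, and 9.96% of the tested genes there had a lower value. In M1B26 against MC26 SOX9 lay 0.48 above the median of the chromosome, which was again 0.48. In MC26 against CT the chromosome's median was 0.00. The part of the chromosome's shift in the SOX9 values was not tested.

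**Figure D3:**
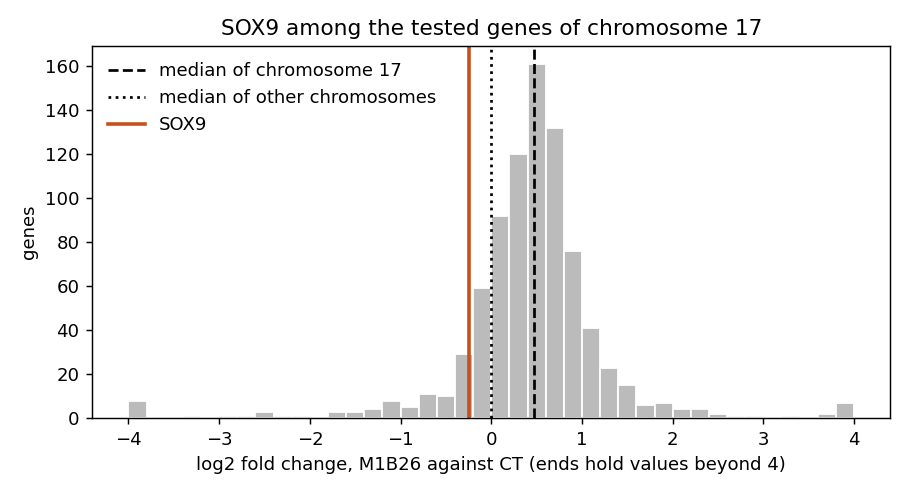
Log2 fold change in M1B26 against CT of the 843 tested genes of chromosome 17, as a histogram with values beyond 4 placed in the end bins, with lines for SOX9 and for the medians of chromosome 17 and of all other chromosomes. SOX9 at -0.24 sits to the left of both medians, 0.72 below that of its own chromosome.

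Basal and luminal factors were next set against each other within each library. Counts of TP63 per count of GATA3 were 2.06, 2.06 and 1.59 in CT, 6.92, 5.96 and 6.02 in MC26 and 11.2, 9.25 and 11.2 in M1B26. The lines did not overlap, and the ratio was highest in M1B26. Counts of TP63 per count of SOX9 were 6.17 to 7.59 in CT, 34.4 to 41.2 in MC26 and 18.8 to 20.9 in M1B26. Here MC26 was highest, again with no overlap. Counts of KLF5 per count of KLF4 ran from 22.3 to 32.2 in CT, from 14.6 to 30.1 in MC26 and from 21.8 to 28.6 in M1B26, with overlap of all 3 lines.

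Levels of different genes were compared after division by exonic length, scaled to the same sum in each library (length-scaled CPM). KLF5 stood highest in all 3 lines, at 154 ± 4.85 in CT, 208 ± 10.3 in MC26 and 150 ± 11.8 in M1B26 length-scaled CPM (n = 3, SD after each mean). TFAP2A followed in CT and MC26, at 43.3 ± 2.20 and 46.8 ± 1.17. TP63 ranked 5 in CT at 17.7 ± 1.92, where its libraries overlapped those of GATA3 just above it at 20.6 ± 1.42. It ranked 3 in MC26 at 39.6 ± 0.745 and 2 in M1B26 at 38.4 ± 2.995, where it overlapped TFAP2A at 37.5 ± 2.08. GATA3 fell to 13.9 ± 1.38 in MC26, where it overlapped TFAP2C and KLF4, and to 8.03 ± 0.285 in M1B26, where it overlapped no neighbour. KLF4, FOXA1, SOX9, ESR1 and ELF5 took the last 5 places in that order in each line. In CT the libraries of KLF4 overlapped those of FOXA1, and those of FOXA1 overlapped those of SOX9. In M1B26 KLF4 and FOXA1 overlapped. The places of TP63 depended on the length used. By longest transcript TP63 stood above GATA3 in CT as well, at 18.7 ± 1.997 against 15.8 ± 1.11, and by coding length at 17.02 ± 1.74 against 13.8 ± 1.08. In M1B26 TP63 ranked 3, below TFAP2A, by either. The mean of TP63 lay below that of TFAP2C in CT and above it in MC26 and M1B26 by all 3 lengths. In CT the gap was small by coding length, at 17.02 ± 1.74 against 18.2 ± 0.790, and overlap by that length was not checked. With coding length in place of exonic length 10 of the 30 places differed.

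**Figure D4:**
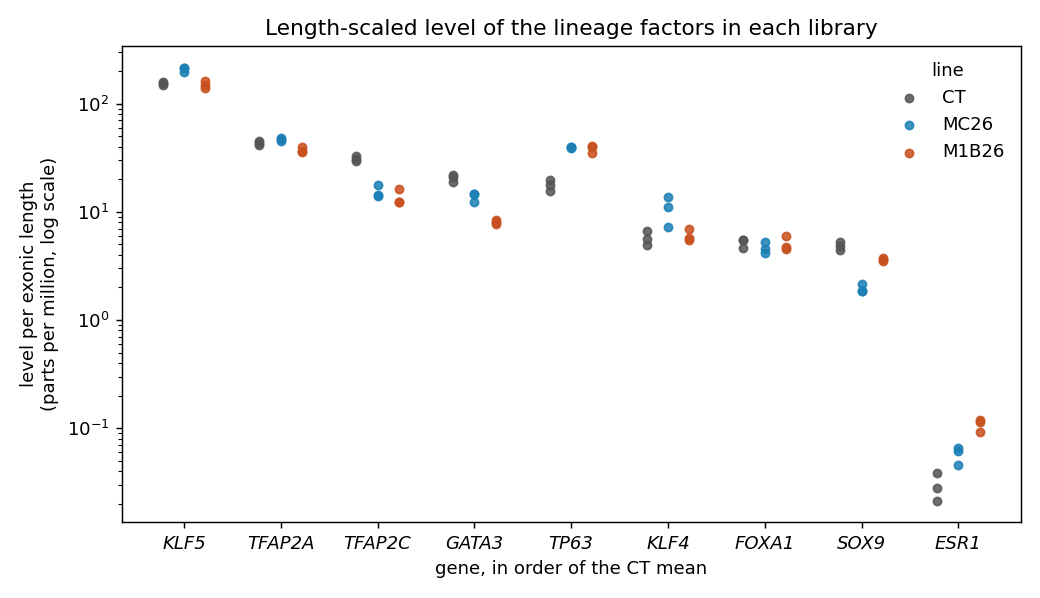
Level of 9 lineage factors per exonic length, in length-scaled CPM on a log axis, with 1 point for each of the 3 libraries of a line and genes in order of their CT mean. KLF5 is highest in every library, TP63 lies below TFAP2C in CT and above it in both transformed lines, and ESR1 reaches 0.120 at most.

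Other transcription factors of the breast were read from a list of 30, of which 23 were tested. Against CT 6 rose and 9 fell in MC26, in M1B26 against CT 10 rose and 5 fell, and between M1B26 and MC26 6 were higher and 7 lower in M1B26. These were 15, 15 and 13 changed genes of 23, or 65.2%, 65.2% and 56.5%, beside 38.7%, 48.9% and 39.5% of all genes. Their median log2 fold changes were 0.07, 0.08 and 0.10, beside 0.00 for all genes in each comparison. SNAI2, which encodes the basal and stem-cell factor Slug, held 29.9 to 31.3 CPM in CT, 96.3 to 162.7 in MC26 and 66.6 to 89.2 in M1B26. It rose by 2.18 in MC26 (edgeR adjusted p 6.76e-06, SE 0.18) and by 1.32 in M1B26 (edgeR adjusted p 1.28e-04, SE 0.17). EHF, an ETS factor of differentiated epithelia, held 39.8 to 48.0 CPM in CT, 0.920 to 7.25 in MC26 and 3.20 to 9.07 in M1B26. Its log2 fold changes were -3.66 in MC26 (edgeR adjusted p 4.89e-04, SE 0.56) and -2.98 in M1B26 (edgeR adjusted p 8.37e-04, SE 0.52). RUNX2 was lower than CT in both lines, at -1.05 in MC26 and -1.42 in M1B26. RUNX1, a factor of both layers, was lower in M1B26 than in MC26 by a log2 fold change of -0.96, with 32.97 to 42.2 CPM against 66.0 to 77.3. STAT5B, which acts below the prolactin receptor, was higher in M1B26 than in MC26 by 0.58, with 69.8 to 73.2 CPM against 46.3 to 49.4. STAT5B lies on chromosome 17, whose median between the lines was 0.48. Against CT it was at -0.25 in MC26 and at 0.33 in M1B26, where the medians of the chromosome were 0.00 and 0.48. The part of the chromosome's shift in the STAT5B values was not tested.

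Markers of the 2 epithelial layers were read beside the factors. Of 27 tested basal markers 14 rose and 4 fell in MC26 against CT, and their median was 0.41 on the log2 scale. Against CT 9 rose and 7 fell in M1B26, with a median of 0.18, and between M1B26 and MC26 5 were higher and 13 lower in M1B26, with a median of -0.33. In all 66.7%, 59.3% and 66.7% of the basal markers changed, beside 38.7%, 48.9% and 39.5% of all genes. Higher ones in MC26 stood beside 18.8% of all genes and lower ones beside 19.9%. KRT14, a keratin of basal cells, held 42.2 to 61.7 CPM in CT, 766 to 1521 in MC26 and 461 to 625 in M1B26. It rose by 4.34 in MC26 (edgeR adjusted p 8.75e-07, SE 0.25) and by 3.33 in M1B26 (edgeR adjusted p 2.07e-06, SE 0.24). KRT5, its usual partner, was at -0.07 in MC26 (95% interval -0.28 to 0.14) and at -0.42 in M1B26 (edgeR adjusted p 0.00435, SE 0.10). COL17A1, a collagen of the hemidesmosome, rose by 2.08 in MC26 and 1.46 in M1B26. KRT16, a keratin of stressed and wounded epidermis, held 21.8 to 35.5 CPM in CT, 15.6 to 30.5 in MC26 and 4.69 to 14.4 in M1B26. In M1B26 it was lower, at -1.77 against CT (edgeR adjusted p 0.00263, SE 0.37) and at -1.37 against MC26 (edgeR adjusted p 0.0142, SE 0.38), the latter lost without M1B26 replicate 1 or 2. KRT14 and KRT16 lie on chromosome 17.

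Of 24 luminal markers 14 were tested. Against CT 1 rose and 8 fell in MC26, with a median log2 fold change of -0.53, which was the same with RAB25 set against the detection floor of 3 counts. In M1B26 against CT 3 rose and 6 fell, with a median of -0.11, and between M1B26 and MC26 7 were higher and 1 lower in M1B26, with a median of 0.43. In all 64.3%, 64.3% and 57.1% of the luminal markers changed, beside 38.7%, 48.9% and 39.5% of all genes. CD24, a surface glycoprotein, was the marker that rose in MC26, by 1.501 on the log2 scale (edgeR adjusted p 0.0126, SE 0.40), with 14.5 to 18.7 CPM in CT and 78.2, 44.7 and 17.6 CPM in MC26, which overlapped. In M1B26 it held 27.6 to 43.6 CPM, a rise of 1.17 (edgeR adjusted p 0.0313, SE 0.40) that was lost in 5 of the 9 fits that left out a library, all 3 without a CT library and those without M1B26 replicate 1 or 2 (adjusted p 0.0525 to 0.0963). EPCAM, an adhesion protein that is strongest on luminal cells, held 65.6 to 74.4 CPM in CT, 11.7 to 19.1 in MC26 and 63.5 to 85.7 in M1B26. It fell by 2.25 on the log2 scale in MC26 (edgeR adjusted p 3.65e-06, SE 0.17) and was higher in M1B26 than in MC26 by 2.28 (edgeR adjusted p 5.22e-06, SE 0.17). CLDN7, a tight junction protein, held 18.6 to 24.2 CPM in CT, 5.26 to 6.56 in MC26 and 13.6 to 25.3 in M1B26, and it lies on chromosome 17. KRT8 fell by 0.88 in MC26 (edgeR adjusted p 1.32e-05, SE 0.08), and in M1B26 it was at -0.27 against CT (edgeR adjusted p 0.0150), a call lost without CT replicate 1 or 3 or M1B26 replicate 1 (adjusted p 0.0554 to 0.0710). KRT18 was at -0.29 in MC26 (edgeR adjusted p 0.00527) and at 0.03 in M1B26 against CT (edgeR adjusted p 0.732). Both keratins were higher in M1B26 than in MC26, KRT8 by 0.61 (edgeR adjusted p 2.03e-04) and KRT18 by 0.32 (edgeR adjusted p 0.00312). ERBB3, a partner of the receptor HER2, was lower than CT in both lines, at -1.63 in MC26 and -1.25 in M1B26. MUC1, a mucin of the luminal surface, was lower in M1B26 than in CT by a log2 fold change of -1.68, and lower than in MC26 by -1.70.

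**Figure D5:**
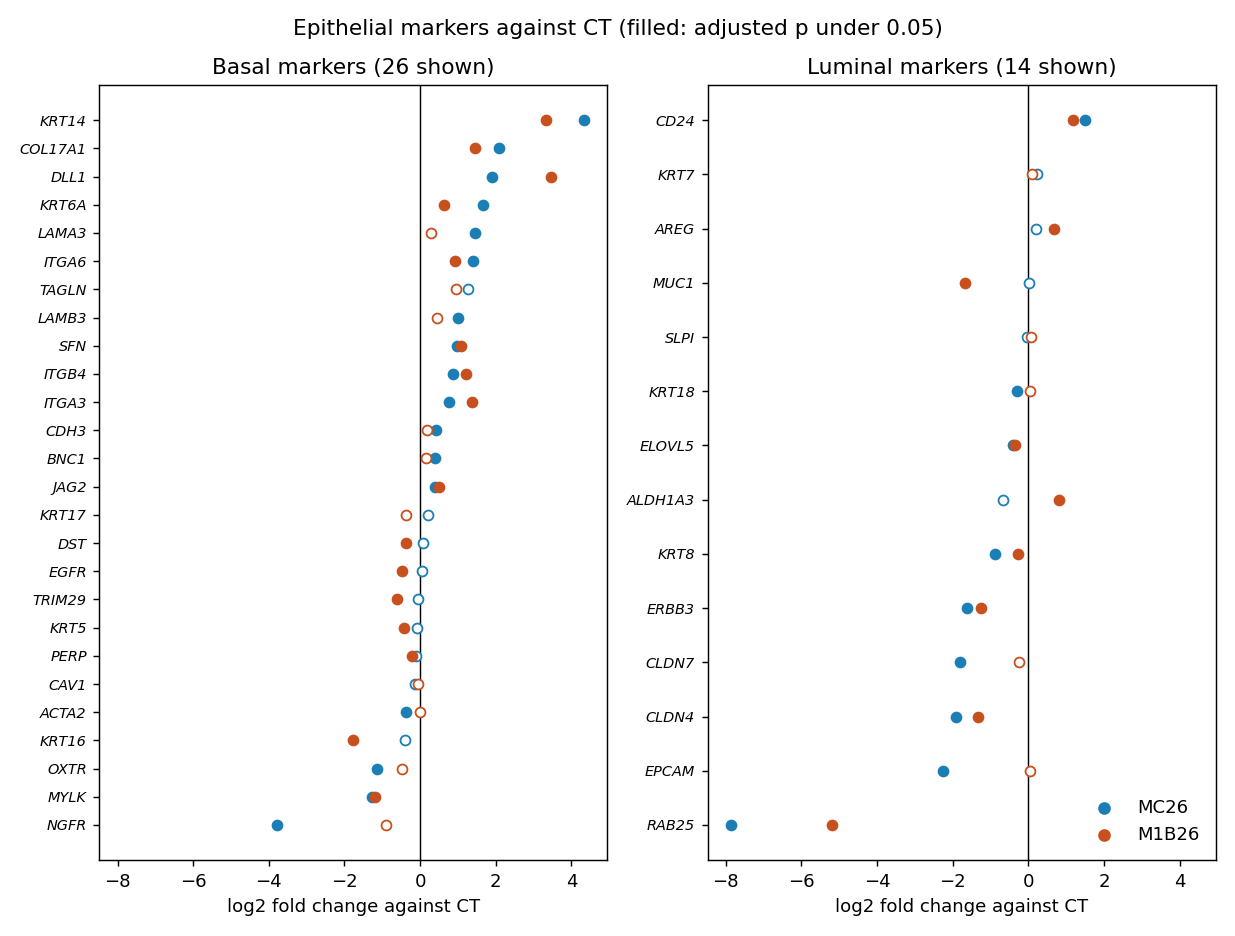
Log2 fold change against CT of 26 basal and 14 luminal tested markers in MC26 and in M1B26, with filled points for an adjusted p under 0.05 by edgeR and genes in order of their value in MC26. Most basal markers lie to the right of 0 in MC26 and most luminal ones to the left, CLDN7 lies at -0.25 in M1B26, 1 further tested basal marker is not plotted, and the point of RAB25 in MC26 is a fitted value against libraries at or under 3 counts.

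Genes known as targets of ESR1, GATA3 and FOXA1 in luminal breast cells made up a last list of 18, of which 11 were tested. Against CT 2 rose and 4 fell in MC26, in M1B26 against CT 4 rose and 5 fell, and between M1B26 and MC26 3 were higher and 5 lower in M1B26. In all 54.5%, 81.8% and 72.7% changed, beside 38.7%, 48.9% and 39.5% of all genes. Their medians were -0.18, -0.35 and 0.12 on the log2 scale. CA12, a carbonic anhydrase, held 71.6 to 74.0 CPM in CT, 199 to 242 in MC26 and 121 to 132 in M1B26, a rise of 1.62 in MC26 and 0.79 in M1B26. MLPH, which links melanosomes to myosin, was lower in M1B26 than in CT by a log2 fold change of -1.20 (edgeR adjusted p 2.52e-04, SE 0.18). IGFBP4, a binding protein of insulin-like growth factors, moved in opposite directions, at -1.26 in MC26 and 1.92 in M1B26 against CT, with 4.37 to 5.23 CPM in CT, 1.64 to 2.59 in MC26 and 15.9 to 21.4 in M1B26. It too lies on chromosome 17, where the median in M1B26 was 0.48 against CT.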

How the data were processed

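Paired-end reads were made from poly-A RNA of each of the 9 cultures. The authors deposited raw counts per gene symbol, aligned with STAR 2.7.3a to GRCh38 with GENCODE v33. Their methods also name Salmon 1.1.0 on protein-coding genes, but non-coding genes and whole values were found in the deposited table of counts, and the program that counted and its use of strand are not given in the sources used here.

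All tests used edgeR 4.0.16 under R 4.3.3. The filterByExpr step, with its minimum count at 10, left 15717 genes, which were scaled by TMM and fitted by a quasi-likelihood model with the line as its only term over all 9 libraries. P-values are 2-sided and adjusted over all genes tested, and the standard error (SE) is the absolute log2 fold change over the square root of F. Intervals of summed counts were computed in Python 3.11.15 with SciPy 1.17.1 and cover counting error only. Replicates of a line differed by more than counting noise (mean chi-square 11.5 or more per gene). Totals of 21425118 to 80076597 set the detection floor of 3 counts at 0.0366 to 0.131 CPM. Positions and exonic lengths came from GENCODE v44 on GRCh38, matched by symbol for 36923 symbols.

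The 10 members and all other lists were chosen with earlier results of these data known. Named genes were the 10 members, 4 keratins, the antisense genes and, from each other list and comparison, at most the 3 called genes with the largest change, 5 CPM or more on average and separate lines. In the lists of other cell types only counts of genes were planned. Counts were simulated for MC26 against CT over 15717 genes, of which 67, 67 and 66 were changed by 0.5, 1 and 2 on the log2 scale. The test called 46.3%, 73.8% and 93.9% of these, and 0.0460% of unchanged genes. Far more genes were called in the data, which changes the adjusted threshold, so these rates do not carry over to the real comparisons. As alternatives, each library was left out, the replicate number was added as a block, only the 6 libraries of a comparison were fitted, the filter was dropped or raised to a mean of 50 counts, the threshold was set to 0.01, total counts or RLE factors replaced TMM, and DESeq2 1.42.0 replaced edgeR. A comparison of the proteins was not analysed here, and a few genes of the lists that the naming rule would give are not reported here.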

Additional observations from a re-analysis of the deposited data

Results flagged for a closer look

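For 5 of the 10 genes the change against CT differed between the transformed lines, by the direct test of M1B26 against MC26 with edgeR. The log2 difference, M1B26 minus MC26, was 0.96 for SOX9, -0.73 for GATA3 and -0.41 for KLF5. These 3 held in every fit that left out a library. SOX9 lies on chromosome 17, whose median was 0.48 in the same comparison. The difference was -0.75 for KLF4 and -0.26 for TFAP2A, and both lost the threshold in 4 of the 9 fits that left out a library. For ESR1 it was 0.98, but ESR1 passed the filter only through M1B26, where it is high, and without the filter the difference was not past the threshold (edgeR adjusted p 0.104). Groups of 3 libraries were too small for a test of single libraries.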

How the results depend on the processing

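At an adjusted p under 0.01, 3698 genes changed in MC26 against CT and 3685 between M1B26 and MC26. Of the 10 lineage factors 3 then differed between M1B26 and MC26, of the other transcription factors 6, of the relatives 7, of the target genes 5, of the cofactors 3, of the leukocyte and endothelial markers 1 and of the antisense genes 0. In M1B26 against CT 9 of the 23 tested other transcription factors and 0 antisense genes then changed, and in MC26 against CT 4 of the 18 tested cofactors. Of all genes 5265 to 7994 changed in M1B26 against CT over the 8 alternatives other than leaving out a library, this threshold among them. With DESeq2 TFAP2A-AS1 was also not called in M1B26 against either line, a count of 0 in each. At 14 to 47 counts per library it was not tested with a mean of at least 50 counts. Without the filter 2 leukocyte and endothelial markers changed in MC26 against CT and 4 fibroblast markers in M1B26 against CT. With the 6 libraries compared these were 4 fibroblast markers in M1B26 against CT and 1 leukocyte and endothelial marker between the lines. By longest transcript 4 of the 30 places in the order of levels differed, and by coding length 10.

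Leaving out each library gave 3 to 6 changed lineage factors between M1B26 and MC26, 7 to 16 other transcription factors, 3 to 11 cofactors, 0 to 1 antisense genes and 1 to 2 leukocyte and endothelial markers. It gave 0 to 3 fibroblast and 1 to 2 leukocyte and endothelial markers in MC26 against CT, and 2 to 4 fibroblast markers and 0 to 1 antisense genes in M1B26 against CT.

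Of the log2 fold changes, only ones that were not called changed sign. Leaving out each library moved FOXA1 in MC26 against CT from -0.16 to 0.0078, with 0.00082 without CT replicate 3, and KRT5 there from -0.15 to 0.0125, with 0.0114 without MC26 replicate 2. It moved TFAP2A in M1B26 against CT from -0.091 to 0.041, with 0.016 without M1B26 replicate 3, and KRT18 there from -0.030 to 0.060, and KRT18 was at -0.064 with total counts. Between the lines it moved TP63 from -0.0064 to 0.065, with -0.0045 without M1B26 replicate 1, and TFAP2C from -0.24 to 0.0032, and TP63 was at -0.00030 with total counts. The causes were not tested.

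Deviations of libraries from the mean of their line were correlated over genes between lines. Same-numbered correlations ran from -0.106 to 0.131 and unlike-numbered ones from -0.121 to 0.104. Between M1B26 and MC26 the same-numbered ones were 0.068, 0.033 and 0.131, and unlike-numbered ones ran from -0.101 to 0.039. These values do not settle whether replicate numbers pair the libraries. With the replicate number as a block 5879, 7513 and 6009 genes changed in MC26 and M1B26, each against CT, and between both lines, and so did 7, 4 and 6 of the lineage factors. Only ESR1 in MC26 against CT lost its call among them (1.08, adjusted p 0.0663). ESR1 there was also not called with total counts (0.0595), without the filter (0.148) or with DESeq2 (0.195), and between the lines not without the filter (0.104) or with DESeq2 (0.170). CD24 in M1B26 against CT (1.17) lost its call with DESeq2 and in 5 of the 9 fits that left out a library. The planned comparison of proteins was not run. At this depth ELF5 cannot be compared, and ESR1 rests on 2 to 24 counts per library.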

Other observations

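Relatives of the 10 genes made up a list of 37, of which 23 were tested. Against CT 6 rose and 4 fell in MC26, in M1B26 against CT 4 rose and 5 fell, and between M1B26 and MC26 7 were higher and 5 lower in M1B26, with medians of 0.10, 0.06 and -0.01 on the log2 scale. In all 43.5%, 39.1% and 52.2% changed, beside 38.7%, 48.9% and 39.5% of all genes, so the first is near and the second below the background. GATA2, best known from blood and vessel cells, was singled out after its values were seen. It held 0.218 to 0.476 CPM in CT, 2.14 to 2.98 in MC26 and 4.69 to 5.25 in M1B26, a log2 fold change of 2.76 in MC26 (edgeR adjusted p 1.10e-05, SE 0.24) and 3.75 in M1B26 (edgeR adjusted p 8.75e-07, SE 0.24). GATA3, its relative, fell in both lines. KLF7 rose by 1.37 in MC26 and 1.06 in M1B26 on the log2 scale. KLF12 was lower in M1B26 than in CT by -1.17 and lower than in MC26 by -1.002. SOX13 was lower in MC26 than in CT by -0.69, and SOX15 was higher in M1B26 than in CT by 0.96. SOX15 lies on chromosome 17, whose median was 0.48 in that comparison.

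Of 18 tested cofactors and regulators of the 10 genes 4 rose and 3 fell in MC26 against CT, 3 rose and 7 fell in M1B26 against CT, and 1 was higher and 8 lower in M1B26 than in MC26. In all 38.9%, 55.6% and 50% changed, beside 38.7%, 48.9% and 39.5% of all genes, the first at the background. Their medians were 0.05, -0.16 and -0.22. NRIP1, which represses nuclear receptors, rose by 0.77 in MC26 and 0.72 in M1B26. NCOA3, a coactivator of them, held 160 ± 12.6 CPM in CT and 91.8 ± 10.5 in MC26 (SD, n = 3), a log2 fold change of -0.80. FOXO3 was lower than CT in both lines, at -0.65 and -0.86. CITED4, an AP-2 coactivator, exceeded CT by 0.99 and MC26 by 1.09 in M1B26. Of the fibroblast markers 4 were tested. In MC26 against CT 0 changed with edgeR or with DESeq2 and 1, COL1A1, had an unadjusted p under 0.05 (0.0405), while 2 were higher in M1B26 than in either other line. COL1A1, 1 of these, lies on chromosome 17. Of the leukocyte and endothelial markers 2 were tested. In MC26 against CT 1 fell, in M1B26 against CT 1 rose and 1 fell, and both were higher in M1B26 than in MC26. Of all genes 38.7%, 48.9% and 39.5% changed in these comparisons. Lists with 4 and 2 tested genes are too short to be set against those shares.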
